A study of Mus musculus with 2 samples.

Results

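The genes described here are the well-expressed members of the mouse Zfp series, protein-coding genes whose symbol is Zfp, a number and at most 1 further letter. They were chosen by level. The deposited table lists 347 such genes, and the 107 whose mean over both libraries was at least 300 scaled reads were taken. A scaled read is the deposited unit, in which each library's read counts carry a common factor and no correction for gene length. A member can pass the minimum through much RNA or much exon length. The rule reads the mean level and not the ratio of the libraries. The other 240 Zfp genes were below the minimum, 161 of them with a mean between 50 and 300.

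RNA was taken from B16 cells, a pigmented melanoma line of the mouse, in 2 groups of 1 library each. One group was treated with LY500307 and the other was control-treated. LY500307, or erteberel, activates estrogen receptor beta selectively. The sources used here do not state the dose, the time of treatment, the vehicle or the number of cultures behind a library.

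Zfp genes mostly encode proteins with C2H2 zinc fingers, short folds in which a pair of cysteines and a pair of histidines hold a zinc ion. Fingers stand in rows along the protein, and each contacts a few bases, so that a row reads a stretch of DNA, while some finger types bind RNA instead. Many of these proteins also carry a KRAB box, which recruits TRIM28 and with it histone methylation that silences mobile elements and imprinted genes, and others work in transcription, RNA handling or protein turnover.

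An element that many members share is a finger followed by a conserved linker, and it is shown here because it is what makes these genes alike in sequence. The pattern of a finger with its linker was found in the coding sequence of 49 of the 107 members, and the linker in 54. The linker was counted as the exact amino acids TGEKP, so variants of it were not counted. The first such element of 2 genes at the higher end of the difference between libraries, Zfp12 and Zfp180, and of the 2 at the lower end, Zfp386 and Zfp568, reads as follows in the GENCODE M21 transcripts, 5′ to 3′ on the coding strand, with the linker in capitals.
Zfp12: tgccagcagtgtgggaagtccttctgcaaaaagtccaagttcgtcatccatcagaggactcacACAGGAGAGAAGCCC
Zfp180: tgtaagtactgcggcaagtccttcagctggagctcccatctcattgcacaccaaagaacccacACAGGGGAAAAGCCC
Zfp386: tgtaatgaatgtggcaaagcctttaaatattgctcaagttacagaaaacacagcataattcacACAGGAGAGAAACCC
Zfp568: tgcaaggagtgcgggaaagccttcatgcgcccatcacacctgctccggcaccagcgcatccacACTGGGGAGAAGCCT
Each run is 78 bases long, with a linker of 15 bases. Between genes, 52.6% to 66.7% of the 78 bases were identical, and 11 to 14 of the 15 linker bases. The likeness did not extend to long identical stretches for most members. Of the 107 members, 54 had no 50-base stretch in common with another annotated gene, 18 shared over 1% of their 50-base stretches and 9 over 5%, and the highest share was 14.3%, for Zfp865.

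The LY500307 library held 14698853 recovered reads and the control library 16704950, over 18224 listed genes. All 7 melanocyte markers looked up were listed at over 300 scaled reads, with sums of 393036 in LY500307-treated and 411259 in control cells. Of the markers of other cell types, 2 of 7 for leukocytes (sums 29.7 and 27.4), 3 of 5 for fibroblasts (129 and 96.3), 0 of 3 for endothelium and 0 of 3 for keratinocytes were matched in the table used here. A single library stands for each group, so the treatments cannot be tested against each other, no p-value is given, and each difference describes these libraries. Intervals are exact 95% Clopper-Pearson intervals of the ratio of reads. They cover counting error only, and reads from PCR are not independent molecules. In bulk RNA, fewer cells expressing a gene and less RNA per cell cannot be told apart.

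As a group the Zfp genes were at nearly the same level in both libraries. Their summed values were 80441 scaled reads in LY500307-treated and 81569 in control cells, a log2 ratio of -0.02 (interval -0.03 to -0.01). The 6650 other protein-coding genes of like mean, from 300 scaled reads to the highest member, also summed to a log2 ratio of -0.02. The deposited totals themselves differ by -0.02 on the log2 scale, so both sums lie where the scaling of the libraries lies. Gene by gene, 66 members were lower and 41 higher in LY500307-treated cells, or 58 lower and 49 higher when each value is divided by its library's total. The 6650 other genes had 3571 lower and 3079 higher as deposited, and 3246 lower and 3404 higher over library totals. The median log2 ratio was -0.03 for members and -0.01 for the other genes.

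**Figure D1:**
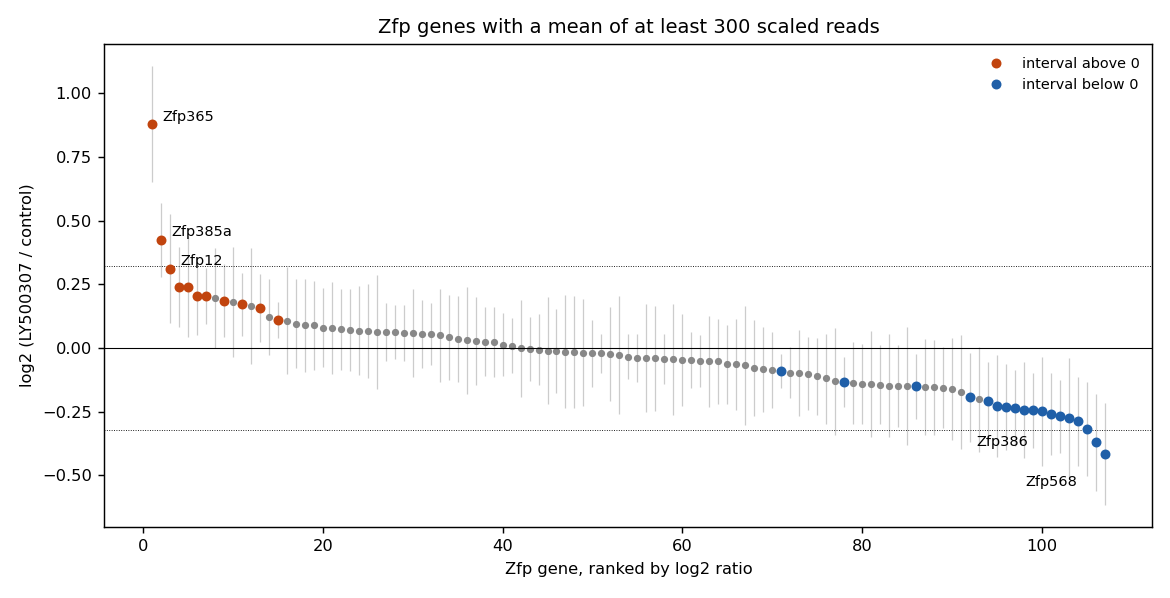
Log2 ratio of LY500307 over control for each of the 107 Zfp genes, ranked, with exact 95% counting intervals as vertical lines; red points have an interval above 0, blue points one below 0, and dotted lines mark 25% higher and 20% lower. Zfp365 stands apart at the higher end at 0.88, and the lower end reaches -0.42 at Zfp568.

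Pooled over all levels, the spread of the log2 ratio over members was much like that of other genes. The pooled groups are not matched for level. A mean of 300 to 500, where ratios spread most, was found for 40 members and 1366 of the others. The pooled SD was 0.17 over the 107 members and 0.18 over the 6650 others. The interquartile ranges were 0.20 and 0.21. The outer parts were narrower for members on the higher side, with a 95th percentile of 0.20 against 0.28, and alike on the lower side, with a 5th percentile of -0.26 against -0.28. Zfp365 alone carried part of the members' SD, which was 0.15 without it. Counting error by itself would give an SD of 0.086 for members and 0.074 for the others.

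The spread narrowed with level, and within each bin members spread less than the others. The interquartile ranges, from the lowest bin to the highest, were 0.21, 0.21 and 0.11 for members. Those of the others were 0.28, 0.22 and 0.18. Between 300 and 500 scaled reads, the 40 members had a median of -0.04 and an SD of 0.22, or 0.17 without Zfp365, and the 1366 other genes a median of 0.00 and an SD of 0.23. Between 500 and 1000, the 47 members had a median of -0.05 and an SD of 0.15, and the 2310 others a median of -0.01 and an SD of 0.18. From 1000 to the highest member, the 20 members had a median of -0.01 and an SD of 0.093. The 2974 others had a median of -0.02 and an SD of 0.16. The most abundant members thus lay closest to a ratio of 1. In that bin counting error gives an SD of 0.053 for members and 0.051 for the others.

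**Figure D2:**
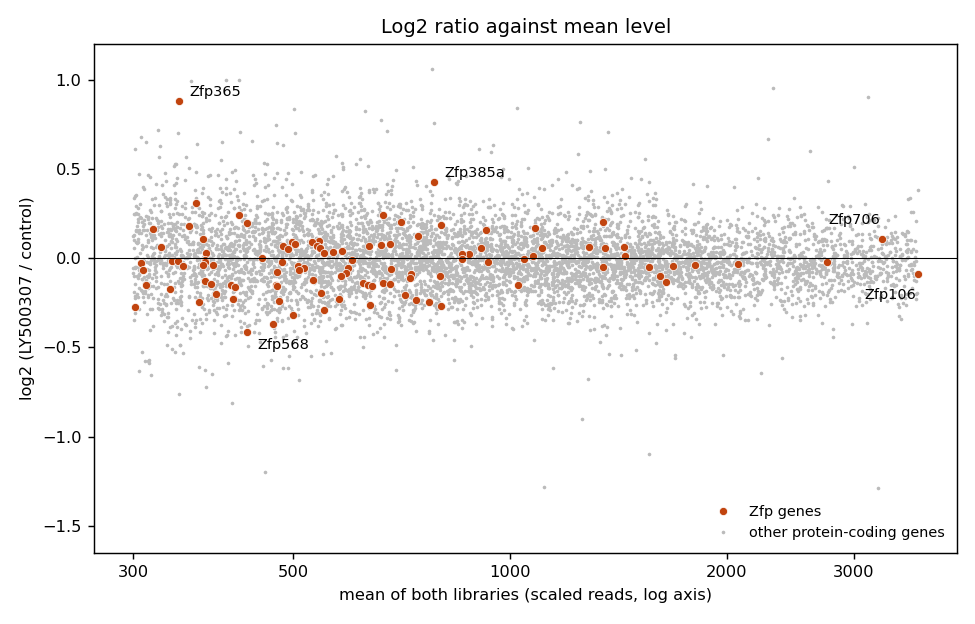
Log2 ratio of LY500307 over control against the mean of both libraries, in scaled reads on a log axis, for the 107 Zfp genes (red) and 6650 other protein-coding genes of like mean (grey). Red points lie within the grey cloud at each level, with Zfp365 at its upper edge.

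**Figure D3:**
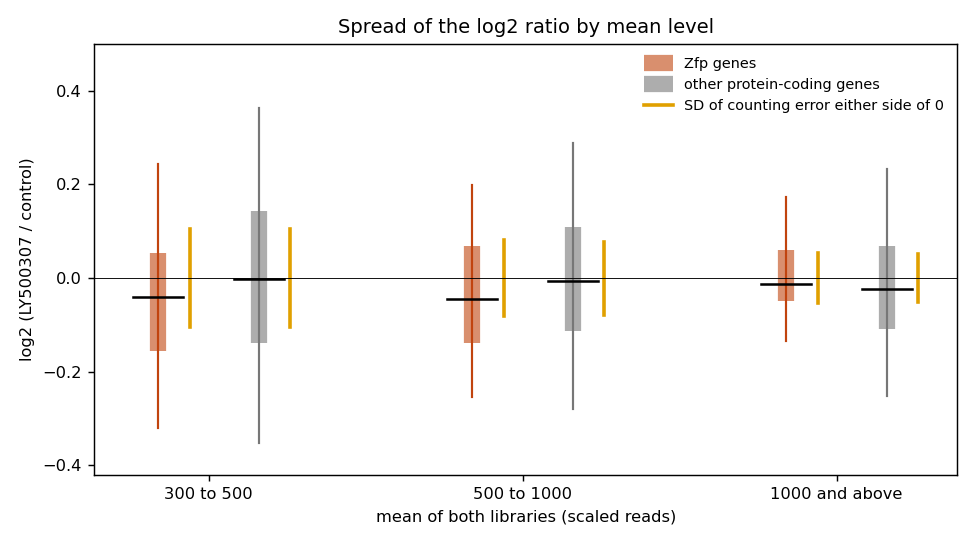
Spread of the log2 ratio of LY500307 over control in 3 bins of mean level, for Zfp genes (red) and other protein-coding genes (grey). Black bars are medians, boxes the interquartile range, thin lines the 5th to 95th percentile and yellow lines 1 SD of counting error either side of 0. From 1000 scaled reads to the highest member the SD was 0.093 for Zfp genes and 0.16 for the others.

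Few members differed by much. A ratio of at least 5 to 4, that is 25% higher or 20% lower, was reached by 2 members on the higher side, Zfp365 and Zfp385a, and by 2 on the lower side, Zfp386 and Zfp568. Each is 1.87% of the members, against 3.19% higher and 3.3% lower over all 7673 genes with a mean of at least 300, and 3.37% and 3.41% over the protein-coding genes of like mean. At 1.5-fold there was 1 higher member, Zfp365, and no lower one, beside 0.508% and 0.378% of all genes. A counting interval above 0 was found for 11 members, or 10.3%, beside 18.7% of all genes, and one below 0 for 18 members, or 16.8%, beside 24.9%. The share of members lay below that of all genes for each of these rules except 1.5-fold higher, where a single member is 0.935%. Past 5 to 4, the lowest bin held 1 higher and 2 lower of 40 members, where 6.81% and 6.37% of the other genes passed. The middle bin held 1 higher and 0 lower of 47, beside 3.33% and 3.2%, and the highest bin none of 20, beside 1.82% and 2.22%. By level, the shares of members with an interval above 0 were 7.5%, 10.6% and 15% in the 3 bins, low to high, and those of the other genes 15.5%, 18.3% and 19.1%. On the lower side they were 17.5%, 17% and 15% of members, and 16.5%, 19% and 28.7% of the others.

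Zfp365 (ENSMUSG00000037855, chromosome 10) had the highest log2 ratio. It stood at 450.0 scaled reads in LY500307-treated cells and 245 in control cells, on 425 and 259 reads, a log2 ratio of 0.88 (interval 0.65 to 1.11). Its human counterpart ZNF365 is a target of p53 that takes part in genome stability. The ratio lay at the 99.8th percentile of the other genes with a mean of 300 to 500. No exon overlap of 50 bases or more, no shared 50-base stretch and no near-identical copy was annotated for it, and the C2H2 pattern was not found in its longest coding sequence. The gap to the next member was wide.

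That next member was Zfp385a (ENSMUSG00000000552, chromosome 15), an RNA-binding protein that p53 induces in mouse cells. It stood at 899 scaled reads in LY500307-treated cells and 669.6 in control cells, on 849 and 709 reads, a log2 ratio of 0.42 (interval 0.28 to 0.57). This was the 98.6th percentile of the other genes with a mean of 500 to 1000. Like Zfp365, Zfp385a had no annotated overlap or copy.

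At the lower end, Zfp568 (ENSMUSG00000074221, chromosome 7) encodes a KRAB protein that in the mouse represses a placental transcript of Igf2. It stood at 369.5 scaled reads in LY500307-treated cells and 493 in control cells, on 349 and 522 reads, a log2 ratio of -0.42 (interval -0.62 to -0.22). Zfp386 (ENSMUSG00000042063, chromosome 12), with 9 fingers and a KRAB pattern, stood at 409 scaled reads in LY500307-treated cells and 528 in control cells, on 386 and 559 reads, a log2 ratio of -0.37 (interval -0.56 to -0.18). Among the other genes of their bin, Zfp386 was at the 4.39th percentile and Zfp568 below it. A further member, Zfp787, lay just short of 20% lower at 445 scaled reads in LY500307-treated cells and 554 in control cells (-0.32, interval -0.50 to -0.13).

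The 250 bases before the annotated start of Zfp365, Zfp385a and Zfp386, shown because these members differ most among those with an entry in the RefSeq promoter table, follow 5′ to 3′ on the gene's strand, with each GGGCGG or CCGCCC in capitals. They are from RefSeq on GRCm38.p6, another build than that of the deposited table, at chr10:67912663-67912912 (minus strand), chr15:103340087-103340336 (minus strand, the first of 2 listed starts) and chr12:116047474-116047723 (plus strand).
Zfp365: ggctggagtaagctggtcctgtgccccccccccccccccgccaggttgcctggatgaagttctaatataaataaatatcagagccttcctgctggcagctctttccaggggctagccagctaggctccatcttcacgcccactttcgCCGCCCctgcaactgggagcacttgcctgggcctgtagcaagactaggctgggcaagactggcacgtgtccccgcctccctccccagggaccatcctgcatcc
Zfp385a: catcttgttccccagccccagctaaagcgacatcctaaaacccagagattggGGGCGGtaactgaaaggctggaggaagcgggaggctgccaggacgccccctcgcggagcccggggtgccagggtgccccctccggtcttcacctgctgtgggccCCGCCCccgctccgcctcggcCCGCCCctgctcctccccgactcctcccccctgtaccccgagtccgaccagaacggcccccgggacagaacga
Zfp386: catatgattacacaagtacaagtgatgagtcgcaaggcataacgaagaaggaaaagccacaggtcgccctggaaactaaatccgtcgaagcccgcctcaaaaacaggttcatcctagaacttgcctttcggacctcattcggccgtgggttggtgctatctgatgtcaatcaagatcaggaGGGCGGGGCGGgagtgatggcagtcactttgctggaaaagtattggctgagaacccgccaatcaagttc
The 3 stretches held 6, 19 and 12 CpG pairs, with a GC content of 61.6%, 70% and 50.4%. The letters GGGCGG, searched on both strands, were present in all 3. Of the 86 members with an entry, 59.3% held them, against 65.3% of 5395 other genes of like mean and 58.7% of all 10395 listed protein-coding genes with an entry. CCAAT, on both strands, was present before Zfp385a and Zfp386, in 38.4% of members, 36.5% of the other genes and 36.8% of all. TATAAA, on both strands, was present before Zfp365, in 6.98% of members, 4.87% of the other genes and 6.17% of all. The consensus half-site of p53, which reads alike on both strands, was matched before Zfp386 and not before Zfp365 or Zfp385a, in 9.30% of members, 5.91% of the other genes and 6.16% of all. The median number of CpG pairs was 14 for members and 18 for the other genes of like mean. A match of these letters is a description and not a binding site.

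The remaining members among the 10 highest ratios were less than 25% higher. Zfp12, whose human counterpart ZNF12 is a KRAB repressor, stood at 407 scaled reads in LY500307-treated cells and 328 in control cells (log2 ratio 0.31, interval 0.10 to 0.52). Zfp212 stood at 723 scaled reads in LY500307-treated cells and 612 in control cells (0.24), and Zfp398, whose human counterpart ZNF398 was isolated as a partner of estrogen receptor alpha, at 456 scaled reads in LY500307-treated cells and 386 in control cells (0.24, interval 0.04 to 0.44). These 3 intervals lie above 0. Near-identical copies, which can share reads, were annotated for Zfp398, though it shared only 0.55% of its 50-base stretches with other genes. Zfp180, a gene with 12 fingers, stood at 755 scaled reads in LY500307-treated cells and 655 in control cells (0.20). Zfp637 was the most abundant of the 10, at 1443 scaled reads in LY500307-treated cells and 1253 in control cells (0.20, interval 0.09 to 0.31). Zfp655, which encodes a partner of the signalling protein Vav, stood at 856 scaled reads in LY500307-treated cells and 752 in control cells (0.19). The other 2 of the 10 had intervals that include 0. They were Zfp618, a partner of UHRF2 at hydroxymethylated DNA, at 461 scaled reads in LY500307-treated cells and 402 in control cells (0.20), and Zfp703, a corepressor whose human counterpart is amplified in luminal breast cancer, at 381 scaled reads in LY500307-treated cells and 336 in control cells (0.18).

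Each of the 10 lowest ratios had an interval below 0. Zfp651 stood at 497 scaled reads in LY500307-treated cells and 606 in control cells (-0.29). Zfp426 stood at 273 scaled reads in LY500307-treated cells and 331 in control cells (-0.28), and Zfp266, which limits the reprogramming of mouse fibroblasts to heart muscle, at 727 scaled reads in LY500307-treated cells and 875 in control cells (-0.27). These 3 ratios lie close together. Zfp142, with 36 fingers the longest row of all members, stood at 582 scaled reads in LY500307-treated cells and 697 in control cells (-0.26). Zfp687, known in human cells from the Z3 complex with ZMYND8, stood at 706 scaled reads in LY500307-treated cells and 837 in control cells (-0.24). Zfp654 stood at 339 scaled reads in LY500307-treated cells and 402 in control cells (-0.25), and Zfp629, with 19 fingers, at 438 scaled reads in LY500307-treated cells and 518 in control cells (-0.24). Exon overlap with a gene on the other strand was annotated for Zfp651, Zfp142 and Zfp687, and among the 10 highest ratios for Zfp703. The reads of these genes are uncertain where counting did not use strand. Overlap on the same strand was annotated for Zfp787, whose reads are uncertain either way.

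**Figure D4:**
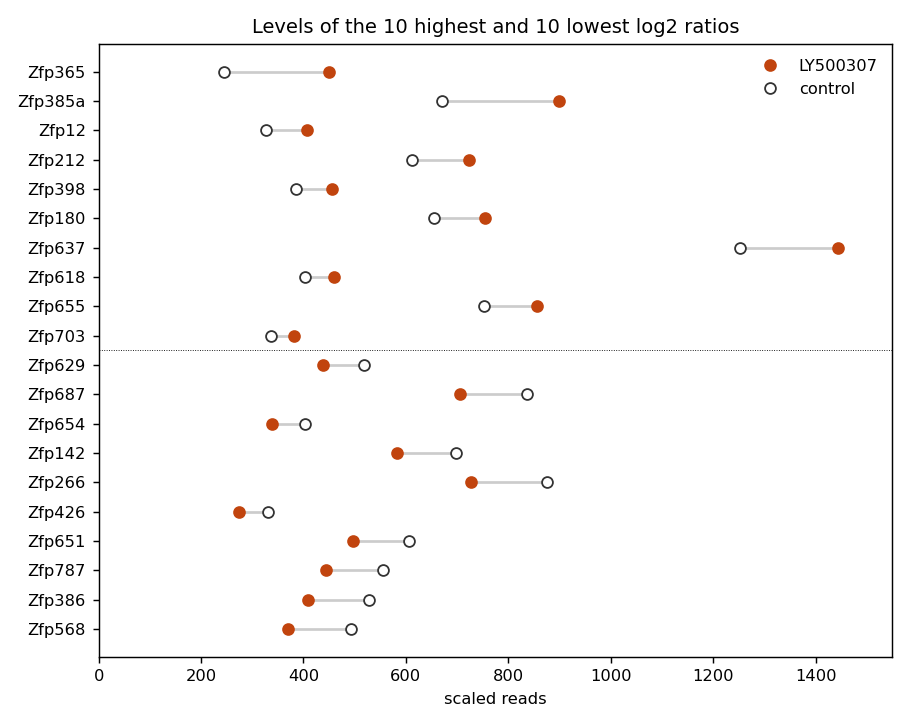
Levels, in scaled reads, of the 10 Zfp genes with the highest (above the dotted line) and the 10 with the lowest (below it) log2 ratio, in the LY500307 library (filled) and the control library (open). The distance between the points is widest for Zfp385a, at 899 and 669.6 scaled reads, and for Zfp365, at 450.0 and 244.6.

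At the threshold itself, Zfp426 (mean 302) and Zfp263 (mean 308) lay just inside 300 scaled reads, with log2 ratios of -0.28 and -0.03. Zfp35 (mean 293) and Zfp277 (mean 287) lay just outside, with -0.0026 and -0.27, and the sign of Zfp35 turns over library totals. Below the threshold more ratios were also lower than higher as deposited, and counts over library totals were not taken there. The 161 Zfp genes with a mean of 50 to 300 had a median log2 ratio of -0.06 and an SD of 0.29, with 100 lower and 61 higher, where 2423 other protein-coding genes of that mean had a median of 0.04 and an SD of 0.35.

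The 5 members of highest mean differed little between the libraries. Zfp106, an RNA-binding protein needed in motor neurons and muscle, had the highest mean, at 3575 scaled reads in LY500307-treated cells and 3802 in control cells (-0.09, interval -0.16 to -0.02). Zfp706, a small protein with a role in the exit of mouse embryonic stem cells from self-renewal, stood at 3413 scaled reads in LY500307-treated cells and 3164 in control cells (0.11, interval 0.04 to 0.18). Zfp706 has 2 annotated near-identical copies that can share its reads. Overlap with an exon on the other strand was annotated for Zfp106, Zfp706 and Zfp740, and on the same strand for Zfp91. Zfp207, a spindle protein that binds Bub3 at kinetochores, stood at 2739 scaled reads in LY500307-treated cells and 2779.5 in control cells (-0.02). Zfp91, a ubiquitin ligase of the NF-kappaB pathway, stood at 2051 scaled reads in LY500307-treated cells and 2100.4 in control cells (-0.03), and Zfp740 at 1785 scaled reads in LY500307-treated cells and 1833 in control cells (-0.04). None of these 5 differed by more than 0.11 on the log2 scale. Per kilobase of exon, the highest means were those of Zfp706 (660.2 scaled reads), Zfp637 (526) and Zfp428 (493). The lowest was that of Zfp280d (17.8), and the median was 92.1. Exon length here joins the exons of all annotated transcripts of a gene, so genes can be compared only roughly.

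Of 12 Zfp genes on the list for RNA binding and translation, 9 reached the minimum, with a median log2 ratio of -0.02, 4 higher and 5 lower. Zfp638, an RNA- and DNA-binding partner of the HUSH silencing complex, stood at 1657 scaled reads in LY500307-treated cells and 1707 in control cells (-0.04). It has annotated near-identical copies that can share its reads, but shared only 0.73% of its 50-base stretches with other genes. Zfp598, the ubiquitin ligase that marks collided ribosomes, stood at 1314 scaled reads in LY500307-treated cells and 1258 in control cells (0.06), and Zfp622, which acts in maturation of the large ribosomal subunit, at 1080.0 scaled reads in LY500307-treated cells and 1070.0 in control cells (0.01). These 3 intervals include 0. Zfp346, which binds double-stranded RNA, stood at 771 scaled reads in LY500307-treated cells and 826 in control cells (-0.10), and Zfp326, known in human cells from a complex that couples splicing to elongation, at 699 scaled reads in LY500307-treated cells and 755 in control cells (-0.11). Within this list the intervals of Zfp385a and Zfp706 lay above 0 and that of Zfp106 below 0, which is 22.2% and 11.1% of the 9, beside 18.7% and 24.9% of all genes.

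Of 13 Zfp genes on the list of chromatin partners, 12 reached the minimum, with a median log2 ratio of -0.03, 5 higher and 7 lower, and a range of -0.24 for Zfp687 to 0.10 for Zfp335. Zfp609, a partner of the cohesin loader Nipbl, stood at 1531 scaled reads in LY500307-treated cells and 1586 in control cells (-0.05). Zfp451, a SUMO ligase, stood at 1472 scaled reads in LY500307-treated cells and 1409 in control cells (0.06), and Zfp516, an activator of brown fat genes, at 1046 scaled reads in LY500307-treated cells and 1048 in control cells (-0.003, a sign that turns over library totals). The interval of Zfp687 lay below 0 and those of the other 11 included 0, so 8.33% lay below 0 and none above, beside 24.9% and 18.7% of all genes. The gene of the list under the minimum, Zfp827, stood at 208 scaled reads in LY500307-treated cells and 263 in control cells (-0.34, interval -0.61 to -0.07). Zfp592, a partner of Zfp687 in the Z3 complex, and Zfp532, also on this list, had log2 ratios of -0.05 (interval -0.22 to 0.11) and -0.12 (interval -0.30 to 0.06). Zfp410, known for its control of the remodeller gene Chd4, stood at 669 scaled reads in LY500307-treated cells and 699 in control cells (-0.06, interval -0.22 to 0.09), and Chd4 at 12598 scaled reads in LY500307-treated cells and 13112 in control cells (-0.06). As for Zfp687, exon overlap with a gene on the other strand was annotated for Zfp335, Zfp532 and Zfp410.

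Zfp genes of growth, signalling and differentiation gave 8 members of 14 on the list, with a median of -0.04, 3 higher and 5 lower. Zfp148, which binds GC-rich promoters, stood at 1324 scaled reads in LY500307-treated cells and 1368 in control cells (-0.05) and has 1 annotated near-identical copy. Zfp746, a repressor of the mitochondrial regulator gene Ppargc1a, stood at 1147 scaled reads in LY500307-treated cells and 1018 in control cells (0.17, interval 0.05 to 0.29). Zfp292 stood at 679.8 scaled reads in LY500307-treated cells and 799.9 in control cells (-0.23, interval -0.39 to -0.09). Zfp318 (-0.15) and Zfp462, which acts in heterochromatin (-0.15), were lower with intervals that include 0.

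Matches to a KRAB box pattern were rarer among the members than among Zfp genes of lower level. A KRAB box pattern was found in 17 of the 107 members, or 15.9%, and in 158 of the 240 Zfp genes below the minimum, or 65.8%. Variant boxes may escape the pattern. Zfp57, on the list of known silencers below, had no match, and neither had the 5 members of the run on chromosome 6 described further on. The 90 members without a match are thus not shown to lack a KRAB box. The 17 members with the pattern had a median mean of 387 scaled reads, against 594 for the 90 without. Their median log2 ratio was -0.02 (SD 0.21), with 7 higher and 10 lower, and that of the other 90 was -0.04 (SD 0.16), with 34 higher and 56 lower. Of 9 KRAB genes on the list of known silencers, 2 reached the minimum. Zfp445, which protects imprinted regions, stood at 1382 scaled reads in LY500307-treated cells and 1326 in control cells (0.06, interval -0.05 to 0.17), and Zfp568 is given above.

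The machinery on which KRAB proteins act was more often lower than higher. Of 25 measured genes of this list, 19 were lower and 6 higher in LY500307-treated cells (18 and 7 over library totals), with a median log2 ratio of -0.07, against -0.02 over all genes with a mean of at least 300. Intervals lay below 0 for 9, or 36%, and above 0 for 3, or 12%, beside 24.9% and 18.7% of all genes. Of the 25, 17 had a mean of at least 1000, where intervals are narrower. Other protein-coding genes from 1000 to the highest Zfp mean, 3688, had shares of 28.7% and 19.1%. Trim28, Uhrf1, Dnmt1, Cbx5 and Ehmt2, all with intervals below 0, lie above that range, and no share was taken there. Trim28, the corepressor that binds the KRAB box, stood at 7711 scaled reads in LY500307-treated cells and 9135 in control cells (-0.24, interval -0.29 to -0.20). Uhrf1, which reads hemimethylated DNA, stood at 7252 scaled reads in LY500307-treated cells and 9107 in control cells (-0.33) and has 1 annotated near-identical copy. Dnmt1, the maintenance methyltransferase, stood at 6184 scaled reads in LY500307-treated cells and 6929 in control cells (-0.16). Sumo2 had the lowest ratio, -1.10 (995 and 2127 scaled reads), but has 11 annotated near-identical copies, so its reads are uncertain. Trim33, a relative of Trim28, had the highest, at 926 scaled reads in LY500307-treated cells and 784 in control cells (0.24). The NuRD and CtBP corepressors, which other zinc finger proteins recruit, were nearly even in direction as deposited. Of 23 measured genes 11 were higher and 12 lower, with a median of -0.02. Intervals lay above 0 for 4 (17.4%) and below 0 for 7 (30.4%), beside 18.7% and 24.9% of all genes. Chd4, Mbd3 (-0.02, a sign that turns over library totals) and Ctbp1 (0.03) were the most abundant. The ratios ran between -0.37 for the corepressor scaffold Sin3a and 0.27 for the NuRD subunit Mta3.

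Ratios were also set beside the structure of the genes. The number of fingers found in the longest coding sequence ran from 0 to 36, with a median of 8. The 15 members with at least 15 fingers had a median log2 ratio of -0.14, with 3 higher and 12 lower. Of their 15 intervals 3 lay below 0 and 1 above, beside 24.9% and 18.7% of all genes, and none of the 15 was 25% higher or 20% lower. The medians were -0.04 for the 27 members with 1 to 4 fingers, -0.01 for the 40 with 5 to 9 and -0.04 for the 22 with 10 to 14. The 3 members without a match, Zfp365, Zfp703 and Zfp330, were all higher. The intervals of Zfp703 and Zfp330 (0.03, interval -0.14 to 0.20) include 0. Of the 54 members with the exact linker TGEKP, 14 were higher and 40 lower. Of the 53 without it, which may hold variant linkers, 27 were higher and 26 lower. Over library totals the split was 21 higher and 33 lower with the linker, and 28 and 25 without. Ratios differed with exon length as well. Of the 53 members longer than the median of 6745 bases, 14 were higher and 39 lower, or 19 and 34 over library totals, and of the other 54, 27 and 27 as deposited. Across members, which are not replicates and share both libraries, Spearman's rho with the log2 ratio was -0.20 for finger number, -0.24 for exon length and 0.21 for GC content. Over the other genes of like mean these values were -0.01, -0.10 and 0.06. There a missing finger count was set to 0, and genes without fingers tie at 0. The -0.01 is thus no background for finger number. The part of length, GC content and mappability in these ratios was not tested.

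Zfp genes lie in clusters that arose by duplication, and neighbours were set side by side. With at most 1 other coding gene between them in GENCODE M21, 24 members formed 10 runs, of which 5 had all members on 1 side. These were 3 of the 8 pairs and both runs of at least 3 members. No such share was taken for other neighbouring genes. On chromosome 6, Zfp398, Zfp282, Zfp212, Zfp777 and Zfp746 were all higher, though not all past counting error, and their summed values were 4155 scaled reads in LY500307-treated and 3765 in control cells, a log2 ratio of 0.14 (interval 0.08 to 0.21). Their single ratios ran from 0.06 (Zfp282, interval -0.07 to 0.18) to 0.24, with intervals above 0 for Zfp398, Zfp212 and Zfp746. Genes in and beside the run did not share 1 direction. Zfp956, inside it, was at -0.08 (interval -0.48 to 0.32). Zfp786, next to Zfp398, was at 0.92 on 69 and 41 reads, and Zfp467, on the other flank, at 0.73 on 281 and 190 reads. Krba1 (-0.31) lies between Zfp746 and Zfp467, and the methyltransferase gene Ezh2 (-0.18) beyond Zfp786. On chromosome 9, Zfp26, Zfp426 and Zfp266 were lower, with sums of 1479 and 1692 scaled reads and a log2 ratio of -0.19 (interval -0.30 to -0.09), though Zfp26 alone was at -0.02 (interval -0.21 to 0.16). Beside them Zfp560 was at -0.43 and Zfp846 at 0.27, both with intervals that include 0.

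**Figure D5:**
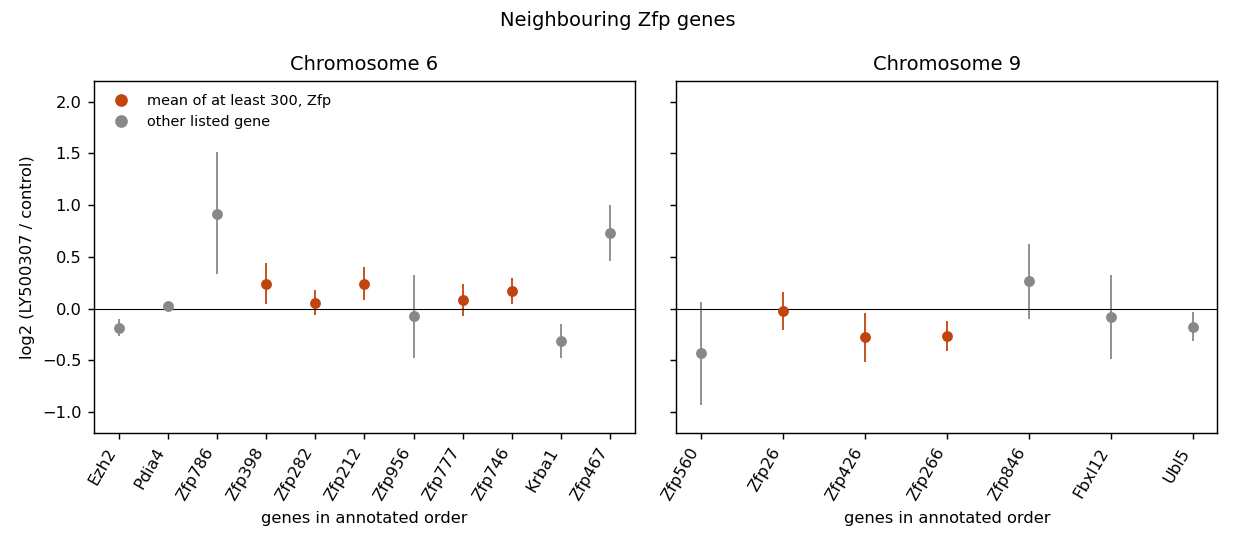
Log2 ratio of LY500307 over control, with exact 95% counting intervals, for genes in their annotated order around the runs on chromosomes 6 and 9; Zfp genes with a mean of at least 300 are red and other listed genes with a mean of at least 50 grey. The 5 red genes on chromosome 6 lie above 0 and the 3 on chromosome 9 below it, with grey genes on both sides.

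Other zinc finger families are given at the same minimum, without matching for level. The 22 Zbtb genes, whose proteins join fingers to a BTB domain, had a median log2 ratio of -0.04 and an SD of 0.20, at a median level of 483 scaled reads. The 10 Klf and Sp genes had a median of -0.10 (SD 0.18), the 10 Zc3h genes, which encode CCCH fingers that bind RNA, a median of -0.11 (SD 0.17) at a median level of 1852, and the 5 Zscan and Zkscan genes a median of 0.01 (SD 0.16). No test of the difference between families was made.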

How the data were processed

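Per the labels' protocols, Trizol was used for extraction, ribosomal RNA was removed and the libraries are stranded. The submitters' processing notes name CASAVA 1.8, Bowtie2 and the build mm9. The sources used here do not state how reads were counted and scaled, on which annotation and with what use of strand. Each gene has 1 deposited signal per library. In each library they are whole multiples of 1 step, 1.06 in the LY500307 and 0.944 in the control library, within 0.01 read for 99.9% of values in both, so that reads were recovered. A value without a read was listed near 0 in 788 and 679 genes.

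Log2 ratios are of the deposited values, LY500307 over control, with no pseudocount. Symbols were matched for 18177 of 18224 identifiers, and 47 had none. Biotypes, exon lengths, gene order, overlaps of at least 50 bases and fingers came from GENCODE M21 (another build). A near-identical copy is another locus whose transcript matched (blastn 2.17.0) with 95% identity or more, across 100 or more bases that make up 50% or more of the shorter of the pair. Exon overlap was annotated for 40 members and a copy for 9.

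The members, lists and rules were chosen with earlier results of these data known. Named are the 10 highest and 10 lowest ratios, the 5 highest means, the 2 genes either side of the minimum, and of each list the 3 most abundant and, for corepressors, the extremes. Further genes of the lists and runs were named after their values were seen. An exact binomial test on recovered reads, Benjamini-Hochberg adjusted over all 18224 genes at 0.05, compares the libraries and not the treatments. It called 3004 genes. Calculations were tested on simulated data. Python 3.11.15, numpy 2.4.6, pandas 2.3.3, scipy 1.17.1, biopython 1.88 and matplotlib 3.10.9 were used.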

Additional observations from a re-analysis of the deposited data

How the results depend on the processing

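With 1 library per group no library can be left out, and the counts of members depend on the minimum and the fold. At a minimum of 200 scaled reads, 6 of 143 Zfp genes (4.2%) were at least 20% lower, beside 3.99% of all genes. At a minimum of 500, 1 of 67 (1.49%) was at least 25% higher and 0 were 20% lower, beside 2.37% and 2.56%, and 11 intervals (16.4%) lay below 0, beside 26.9%. Without a minimum, over 337 genes with reads in both libraries, the SD was 0.444, with 42 genes higher (12.5%) and 46 lower (13.6%) past these limits, beside 17% and 16.2% of all such genes. Then 26 intervals (7.72%) lay above and 45 (13.4%) below 0, beside 13.4% and 14.6%. A fold of 1.5 left 1 gene higher and 0 lower. The binomial test called 8 higher and 11 lower members, beside 12.8% and 17.6% of all genes with a mean of at least 300. Without Zfp365, an alternative chosen after seeing the data, 1 gene was higher; without the 40 members with exon overlap, also chosen then, 2 were higher and 2 lower. The summed log2 ratio, -0.02 as deposited, was -0.000438 over library totals and -0.00234 after centring on coding genes, so its size rests on the scaling. The median over all members stayed negative. Negative medians nearer to 0 than the shift of -0.02 between library totals turn sign with it, among them those of members from 1000 upward, of the NuRD and CtBP list and of the other genes of like mean. Of the 44 named genes, 3 that lay near 0 (Zfp35, Zfp516 and Mbd3) turned sign under both other scalings, by less than the counting error, and the other 41 did not. The 2 runs of neighbours kept their direction. No paired analysis was possible because each group has 1 library and the labels give no replicate numbers.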

Other observations

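Some genes with Zfp symbols lie outside the rule and are given as values only. Zfp125, annotated as a transcribed pseudogene, stood at 99.5 scaled reads in LY500307-treated cells and 201 in control cells, on 94 and 213 reads, a log2 ratio of -1.02 (interval -1.38 to -0.66). Of the CCCH genes that bind AU-rich messenger RNA, Zfp36l2 stood at 982 scaled reads in LY500307-treated cells and 1113 in control cells (-0.18, interval -0.31 to -0.06) and Zfp36l1 at 394 scaled reads in LY500307-treated cells and 351 in control cells (0.16, interval -0.05 to 0.38). Zfpm1, which encodes the GATA partner FOG1, stood at 208 scaled reads in LY500307-treated cells and 161 in control cells (0.36, interval 0.06 to 0.67). Zfp593, of the RNA and translation list, was at 16 and 5 reads.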
